A study of Mus musculus with 10 samples.

Results

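The phosphagen genes measured here were *Ckm*, *Ckb*, *Ckmt1*, *Ckmt2*, *Ak1*, *Ampd1*, *Gatm* and *Slc6a8*, which encode the creatine kinases, a muscle adenylate kinase, a muscle AMP deaminase and proteins of creatine supply. They were chosen by name, and all 8 were found by Ensembl identifier among the 25700 genes counted. RNA came from the tibialis anterior (TA) muscle of 12-week-old male C57BL/6 mice on day 6 after cardiotoxin (CTX), a venom toxin that destroys fibers and starts regeneration, was injected into the muscle. The 5 Pax7Cre mice, littermate controls, carried the Cre recombinase alone, under the control of *Pax7*, and are given as wild type in the labels. The 5 miR-501KO mice carried the same Cre and a floxed miR-501 on their only X chromosome (Pax7CremiR-501fl/Y), and are given as miR-501 -/-. By design, Cre driven by *Pax7* acts in muscle stem cells and the fibers they form. The other cells of the muscle should then keep the miRNA, which could not be checked here. The comparison asks which mRNAs of the regenerating muscle differ when the myogenic lineage lacks miR-501.

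Creatine kinases move a phosphate group between ATP and creatine, so that phosphocreatine can refill ATP during a contraction. *Ckm* encodes the cytosolic muscle form, *Ckb* the cytosolic brain form, *Ckmt2* the mitochondrial form of striated muscle, and *Ckmt1* the mitochondrial form of other tissues. Adenylate kinase, from *Ak1*, makes ATP and AMP from a pair of ADP molecules, and AMP deaminase, from *Ampd1*, removes the AMP by turning it into IMP. Creatine itself is made from arginine and glycine, with the amidinotransferase encoded by *Gatm* at the first step, and is taken up through the transporter encoded by *Slc6a8*.

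The deleted miRNA and its closest relative in sequence are shown because miRNAs recognise mRNAs mainly through the seed, bases 2 to 8, which is in capitals. Both come from the minus strand of chromosome X, at chrX:7241270-7241291 for miR-501-3p and chrX:7237695-7237716 for miR-500-3p (RefSeq, GRCm38.p6), and they share the seed.
mmu-miR-501-3p: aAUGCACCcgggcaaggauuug
mmu-miR-500-3p: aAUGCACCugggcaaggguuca
Among the 1679 mature miRNA names of the RefSeq table, these 2 had this seed. The complement of the seed, GGTGCAT, was present in an annotated 3′ untranslated region of 1364 of 21680 genes (6.29%) and in that of 0 of the 8 phosphagen genes. Elsewhere it was present in 1 of the 13 annotated transcripts of *Slc6a8* and in no transcript of the other phosphagen genes. A missing match says only that these letters do not occur in the annotated sequence.

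The 250 bases before the transcription start are shown for *Ckm* and *Ckmt2*, which varied together between mice, and for *Ckb* and *Gatm*, which formed another such pair. Capitals mark CANNTG (E-box) or AGGTCA (the core of the estrogen-related receptor element), on either strand (RefSeq, GRCm38.p6).
Ckm, chr7:19410844-19411093 (plus strand): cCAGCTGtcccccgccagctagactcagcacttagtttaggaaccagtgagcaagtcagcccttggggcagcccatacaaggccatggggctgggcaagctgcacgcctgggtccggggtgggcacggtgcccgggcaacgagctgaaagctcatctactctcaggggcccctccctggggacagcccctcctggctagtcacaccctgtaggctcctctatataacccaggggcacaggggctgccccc
Ckmt2, chr13:91876886-91877135 (minus strand): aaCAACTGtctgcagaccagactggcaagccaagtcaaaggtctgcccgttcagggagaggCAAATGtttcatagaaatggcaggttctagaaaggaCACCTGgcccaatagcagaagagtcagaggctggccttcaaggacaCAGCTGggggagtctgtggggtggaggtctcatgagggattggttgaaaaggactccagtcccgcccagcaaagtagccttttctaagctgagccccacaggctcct
Ckb, chr12:111672339-111672588 (minus strand): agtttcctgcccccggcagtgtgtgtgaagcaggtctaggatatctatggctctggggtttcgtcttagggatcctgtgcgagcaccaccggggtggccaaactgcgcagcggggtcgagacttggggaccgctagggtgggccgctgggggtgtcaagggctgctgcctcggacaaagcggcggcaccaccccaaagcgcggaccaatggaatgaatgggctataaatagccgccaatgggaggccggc
Gatm, chr2:122611278-122611527 (minus strand): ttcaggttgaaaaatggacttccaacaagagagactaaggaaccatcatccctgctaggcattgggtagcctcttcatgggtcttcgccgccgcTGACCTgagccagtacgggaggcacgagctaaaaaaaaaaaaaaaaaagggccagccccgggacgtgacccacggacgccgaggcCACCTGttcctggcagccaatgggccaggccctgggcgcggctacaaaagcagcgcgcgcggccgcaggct
RefSeq windows were found for 6 of the 8 genes, and *Ampd1* and *Slc6a8* were not matched. Counting alternative starts there were 10 windows, each of 250 bases before and 50 after the start. CANNTG was present in 8 of the 10, against 72.3% of all 32851 windows of this length, and its form CAGCTG in 5, against 16.3%. AGGTCA was present in 4, against 16.3%, and the longer TCAAGGTCA, which contains it, in 0, against 0.423%. The windows with CAGCTG belonged to *Ckm*, *Ckmt1*, *Ckmt2* and *Ak1*, and those with AGGTCA to *Ckmt1*, *Ak1* and *Gatm*. *Ak1* and *Ckmt1* had alternative starts, so these are counts of windows and not of genes, and no enrichment is read from them. *Ckmt2* held 4 matches to CANNTG, *Ckm* and *Gatm* 1 each and *Ckb* 0.

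Each library held between 18609222 and 24753258 counted reads. The gene of miR-501 is not among the genes listed, so its deletion could not be checked in these files, and its host gene *Clcn5* had 945 to 1728 counts. Mature fiber markers such as *Acta1* and *Myh4*, and those of regenerating fibers, macrophages and fibro-adipogenic cells, were present, and no marker of any list was at 0 in every mouse. Pax7Cre mouse 2 and Pax7Cre mouse 4 lay at the opposite ends of the first principal component, at 45.6 and -27.9, with miR-501KO mouse 4 next to the former at 17.5. This component held 31.7% of the variance. In whole muscle, fewer cells of a type and less RNA per cell cannot be told apart.

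None of the phosphagen genes tested differed between Pax7Cre and miR-501KO muscle beyond the spread between mice. Of the 7 that passed the filter on low counts, 4 had a higher and 3 a lower fitted level in miR-501KO, and their median log2 fold change was 0.026, where that of the 14410 genes tested was -0.0042. With edgeR's quasi-likelihood test 0 of 7 passed an adjusted p of 0.05, as did 0% of all genes, and DESeq2's Wald test also called 0 genes. The count was again 0 of 7 at an unadjusted p under 0.05, a level that 55 genes (0.382%) passed as higher and 96 (0.666%) as lower. The genotypes overlapped in CPM (read counts scaled to library size with TMM factors) for 7 of 7, and were fully separated for 0.139% of all genes. In the paragraphs that follow, fold changes are miR-501KO over Pax7Cre from this fit, and exact p-values come from a two-sided permutation test on log2 CPM whose smallest possible value is 0.00794.

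**Figure D1:**
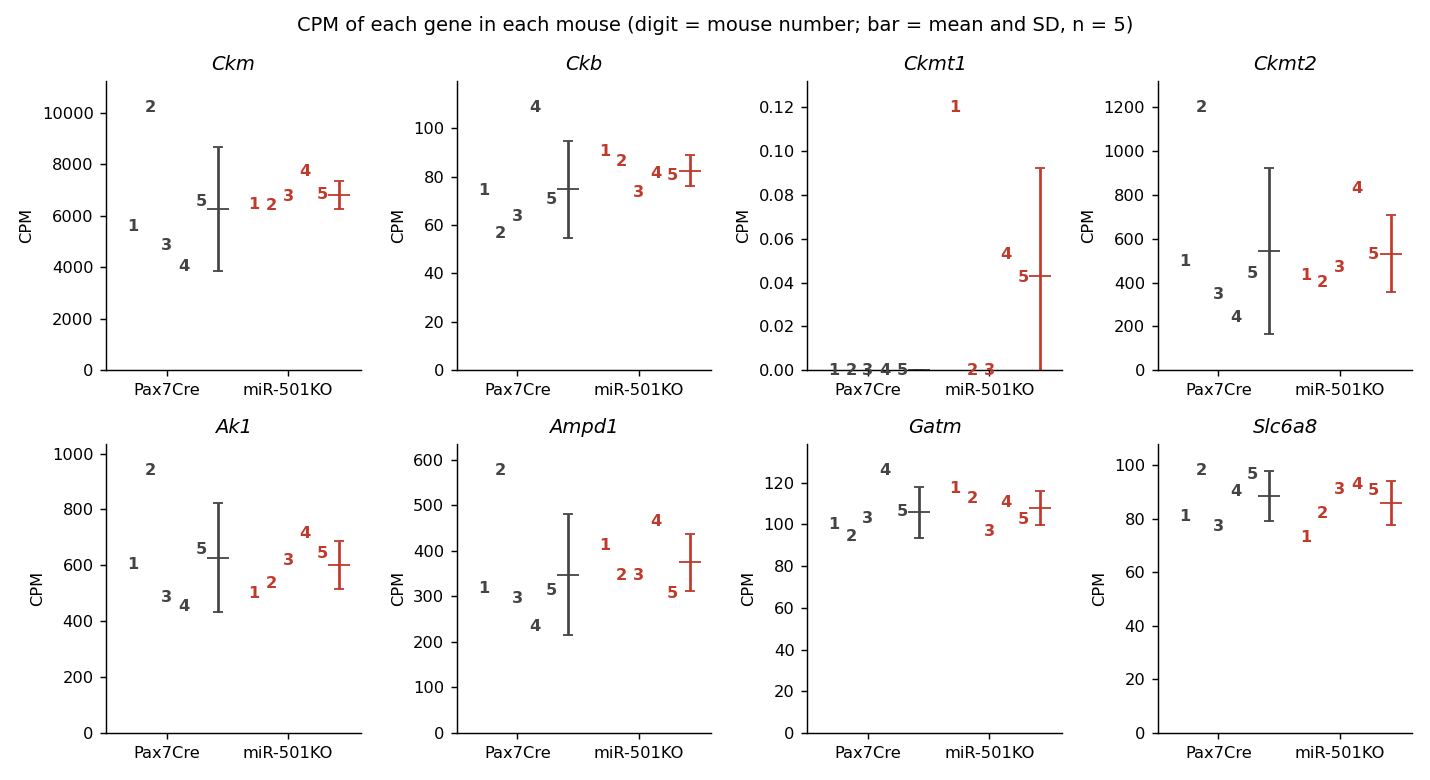
CPM of each phosphagen gene (vertical axis, linear, from 0) in each mouse, with Pax7Cre in grey and miR-501KO in red, digits giving the mouse number and bars the mean and SD of 5 mice. Pax7Cre mouse 2 is highest of its genotype for *Ckm*, *Ckmt2*, *Ak1* and *Ampd1*, Pax7Cre mouse 4 is highest for *Ckb* and *Gatm*, and the genotypes overlap in every panel.

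*Ckm*, the main cytosolic creatine kinase of muscle, was the most abundant of the group. It was at 5581, 10215, 4854, 4025 and 6573 CPM in Pax7Cre mice 1 to 5. In miR-501KO mice 1 to 5 it was at 6421, 6382, 6761, 7719 and 6811 CPM. The miR-501KO mice lay close together, inside the range of the Pax7Cre mice, of which mouse 2 was far above and mouse 4 below all others. The means were 6249 ± 2407 and 6819 ± 539 CPM (SD, n = 5), a log2 fold change of 0.13 (SE 0.22, edgeR adjusted p = 1.00), with a 95% interval of the fold from 0.779 to 1.53. The exact permutation p was 0.413. Without Pax7Cre mouse 2 the log2 fold change was 0.37 (unadjusted p = 0.0332, adjusted p = 0.999 in edgeR), without Pax7Cre mouse 4 it was 0.0030 (unadjusted p = 0.989), and without both it was 0.27 (unadjusted p = 0.0700).

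*Ckb*, the brain-type cytosolic form, which is made in many cell types, had its highest and lowest Pax7Cre mice exchanged relative to *Ckm*. Their levels were 74.2, 56.6, 63.5, 108.7 and 70.6 CPM, lowest in mouse 2 and highest in mouse 4. The miR-501KO mice had 90.4, 86.4, 73.3, 81.4 and 80.6 CPM. These again fell inside the Pax7Cre range. As for *Ckm*, 5 of 5 lay above the middle Pax7Cre mouse, which for *Ckb* was mouse 5 at 70.6 CPM. The share of all genes for which this holds was not computed. The means were 74.7 ± 20.1 and 82.4 ± 6.48 CPM (SD, n = 5), a log2 fold change of 0.14 (SE 0.15, 95% interval of the fold 0.885 to 1.37, edgeR adjusted p = 1.00, exact permutation p = 0.333). Leaving out Pax7Cre mouse 4 gave 0.32 (unadjusted p = 0.00522, adjusted p = 0.996 in edgeR), a fit in which 1.57% of all genes passed an unadjusted p of 0.05 as higher. Leaving out Pax7Cre mouse 2 instead gave 0.054 (unadjusted p = 0.689), and leaving out both gave 0.25 (unadjusted p = 0.0139, adjusted p = 0.982 in edgeR), where that share was 1.91%.

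*Ckmt2*, whose product sits at the mitochondrial membranes of striated muscle, varied most. Among the Pax7Cre mice it was at 494, 1199, 343, 239 and 443 CPM, and among the miR-501KO mice at 431, 402, 467, 831 and 530 CPM. Pax7Cre mouse 2 and miR-501KO mouse 4 stood above the rest of their genotypes, and Pax7Cre mice 3 and 4 below all miR-501KO mice. The means were 544 ± 379 and 532 ± 174 CPM (SD, n = 5), a log2 fold change of -0.031 (SE 0.36, 95% interval of the fold 0.567 to 1.69, edgeR adjusted p = 1.00, exact permutation p = 0.754). No direction can be given, since the mean of log2 CPM was higher in miR-501KO (9.0 against 8.86) while the fitted level was lower, and the log2 fold change was 0.48 without Pax7Cre mouse 2 (unadjusted p = 0.0567, adjusted p = 0.999 in edgeR), -0.22 without Pax7Cre mouse 4 and 0.32 without both.

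*Ckmt1*, the mitochondrial form of non-muscle tissues, was at or near 0. It had 0 counts in 5 of 5 Pax7Cre mice and 3, 0, 0, 1 and 1 counts in miR-501KO mice 1 to 5. Both groups lay at or under 3 counts per library, the number a count of 0 still allows, so no fold change is given and the gene did not enter the test. It shares 10 exon bases with *Strc* on the opposite strand, which itself had 3 to 6 counts.

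**Figure D2:**
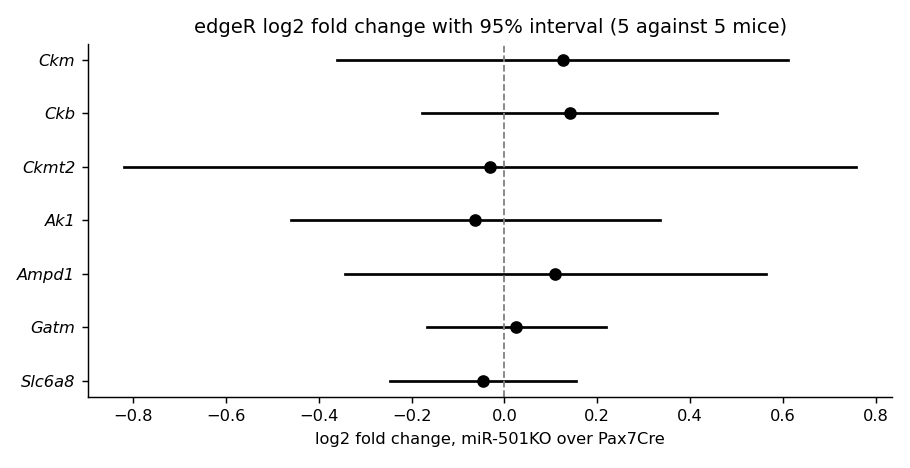
Log2 fold change of miR-501KO over Pax7Cre from edgeR (horizontal axis) for the 7 genes tested, with points for the estimate and lines for the 95% interval. Every interval includes 0, and that of *Ckmt2* is the widest, from -0.82 to 0.76.

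*Ak1* and *Ampd1* encode the enzymes that dispose of ADP and AMP in working muscle, and both had the same highest and lowest Pax7Cre mice as *Ckm*. *Ak1* was at 604, 941, 486, 453 and 656 CPM in the Pax7Cre mice and at 500.0, 536, 616, 714 and 641 CPM in the miR-501KO mice. The means were 628 ± 194 and 601 ± 85.1 CPM (SD, n = 5), and the log2 fold change was -0.062 (SE 0.18, 95% interval of the fold 0.727 to 1.26, edgeR adjusted p = 1.00, exact permutation p = 0.937). Mouse 2 was the highest and mouse 4 the lowest of all mice, both of them Pax7Cre, and the log2 fold change was 0.13 without Pax7Cre mouse 2, -0.16 without Pax7Cre mouse 4 and 0.048 without both.

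*Ampd1* was at 317, 578, 296, 235 and 312 CPM in the Pax7Cre mice. In the miR-501KO mice it was at 412, 345, 346, 465 and 307 CPM. Pax7Cre mouse 2 was above every other mouse, and 4 of 5 miR-501KO mice lay above the median of Pax7Cre. The means were 348 ± 133 and 375 ± 62.9 CPM (SD, n = 5), a log2 fold change of 0.11 (SE 0.21, 95% interval of the fold 0.788 to 1.48, edgeR adjusted p = 1.00, exact permutation p = 0.492). Without Pax7Cre mouse 2 it was 0.37 (unadjusted p = 0.0145, adjusted p = 0.999 in edgeR), without Pax7Cre mouse 4 it was -0.0034 (unadjusted p = 0.986), and without both it was 0.28 (unadjusted p = 0.0417). Of the 7 phosphagen genes, *Ckm* and *Ampd1* had an unadjusted p under 0.05 without Pax7Cre mouse 2 (1.84% of all genes as higher, 1.28% as lower), *Ckb* without Pax7Cre mouse 4 (1.57% and 1.67%), and *Ckb* and *Ampd1* without both (1.91% and 1.73%). The ratio of *Ampd1* to *Ak1* reads was 0.476 to 0.614 in Pax7Cre and 0.479 to 0.824 in miR-501KO, with miR-501KO mouse 1 highest.

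Over both genotypes the creatine supply genes were the steadiest of those tested, with a within-genotype SD of log2 CPM of 0.14 for *Gatm* and 0.15 for *Slc6a8*. This did not hold among the miR-501KO mice alone. There the SD was 0.110 for *Ckm*, 0.111 for *Gatm*, 0.115 for *Ckb* and 0.145 for *Slc6a8*. *Gatm* was at 99.7, 94.2, 103, 126 and 106 CPM in the Pax7Cre mice and at 117, 112, 96.6, 110.5 and 102 CPM in the miR-501KO mice. Pax7Cre mouse 4 was highest and Pax7Cre mouse 2 lowest, as for *Ckb*, within a narrow range. The means were 106 ± 12.1 and 108 ± 8.22 CPM (SD, n = 5), a log2 fold change of 0.026 (SE 0.090, 95% interval of the fold 0.890 to 1.16, edgeR adjusted p = 1.00, exact permutation p = 0.730). It was -0.015 without Pax7Cre mouse 2, 0.097 without Pax7Cre mouse 4 and 0.066 without both.

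*Slc6a8* was at 80.7, 98.1, 77.2, 90.1 and 96.5 CPM in the Pax7Cre mice, and at 72.9, 81.9, 90.7, 92.8 and 90.5 CPM in the miR-501KO mice. The mice of the 2 genotypes were interleaved over almost the same range. The means were 88.5 ± 9.33 and 85.8 ± 8.31 CPM (SD, n = 5), and the log2 fold change was -0.046 (SE 0.093, 95% interval of the fold 0.843 to 1.11, edgeR adjusted p = 1.00, exact permutation p = 0.643). Leaving out Pax7Cre mouse 2, Pax7Cre mouse 4 or both gave -0.0082, -0.039 and 0.016.

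Compared per length of exon, the levels ran from *Ckm* at 2243 CPM per kb over all 10 mice, which ranked 16 among 14392 genes tested, down to *Slc6a8* at 16.7 CPM per kb, which ranked 2434. Between them stood *Ckmt2* at 362, *Ak1* at 237, *Ampd1* at 102, *Gatm* at 35.6 and *Ckb* at 27.1 CPM per kb, with *Ckmt1* at 0.0086. *Ckmt2* and *Ak1* overlapped between mice (161 to 807 and 175 to 363 CPM per kb), as did *Gatm* and *Ckb* (31.4 to 42.0 and 19.6 to 37.5), while all other neighbours in this order were separate in range. Merged exons count every annotated transcript, and 4 of the 5 of *Ckb* are annotated as retaining an intron, against 0 of the 3 of *Ckm*. By coding length alone *Ckm* was at 5717, *Ak1* at 976, *Ckmt2* at 428, *Ampd1* at 162, *Gatm* at 84.2, *Ckb* at 68.7 and *Slc6a8* at 45.4 CPM per kb, so that *Ak1* and *Ckmt2* changed places and the rest of the order held.

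**Figure D3:**
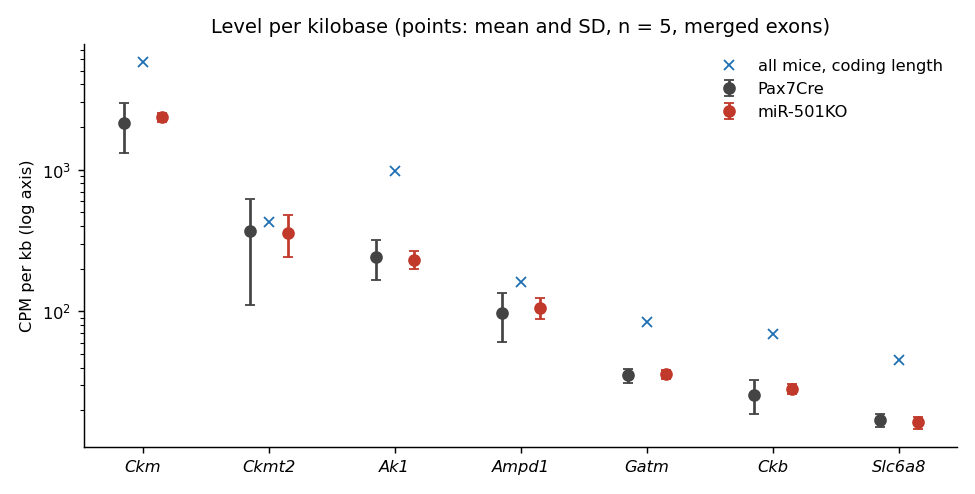
Level of each gene in CPM per kb (vertical log axis), with points and bars for the mean and SD of 5 mice per genotype over merged exons, and crosses for the mean of all mice over the coding length. *Ckm* stands above the rest at 2243 CPM per kb, and the genotype means of each gene drawn lie close to each other. *Ckmt1* is not drawn.

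Within the creatine kinase family, *Ckm* supplied 85.4% ± 2.83 of the summed level per kb in Pax7Cre and 86.0% ± 2.45 in miR-501KO (SD, n = 5). *Ckmt2* supplied 13.4% ± 3.33 and 12.9% ± 2.57, and *Ckb* 1.21% ± 0.709 and 1.06% ± 0.158. All 3 shares overlapped between genotypes. By coding length the share of *Ckm* was 92.0% and 92.4%, that of *Ckmt2* 6.73% and 6.45% and that of *Ckb* 1.29% and 1.13%. The *Ckb* share ranged from 0.452% in Pax7Cre mouse 2 to 2.37% in Pax7Cre mouse 4, and from 0.869% to 1.24% among the miR-501KO mice.

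The ratio of *Ckm* to *Ckb* reads, which needs no gene length or library scaling, was 75.2, 180.3, 76.5, 37.0 and 93.1 in the Pax7Cre mice and 71.0, 73.9, 92.3, 94.8 and 84.5 in the miR-501KO mice. The 2 outlying values on either side were both Pax7Cre, and the other 8 mice lay between 71.0 and 94.8. The ratio of *Ckm* to *Ckmt2* reads was 8.52 to 16.8 in Pax7Cre and 9.29 to 15.9 in miR-501KO, lowest in the mice with most *Ckmt2*, Pax7Cre mouse 2 and miR-501KO mouse 4. The coding sequences of the creatine kinases were 64.5% (*Ckb* and *Ckmt2*) to 75.9% (*Ckm* and *Ckb*) identical, and 0 pairs of the 8 genes shared a run of 100 bases, the read length, in their annotated transcripts.

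**Figure D4:**
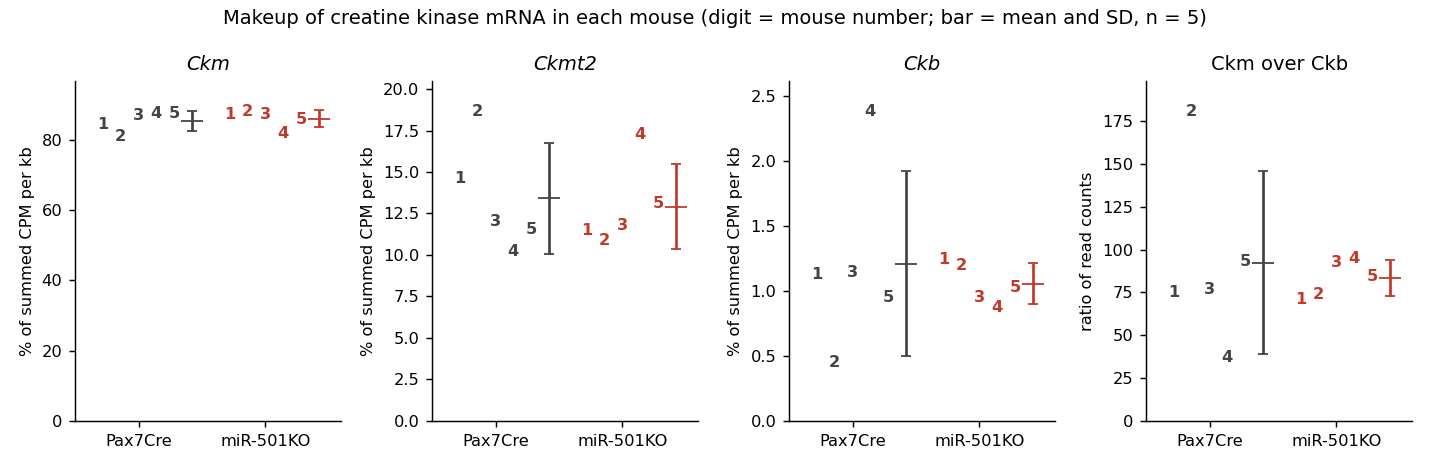
Share of *Ckm*, *Ckmt2* and *Ckb* in the summed creatine kinase level per kb (first 3 panels, in percent) and the ratio of *Ckm* to *Ckb* read counts (last panel) in each mouse, with digits for the mouse number and bars for the mean and SD of 5 mice. Pax7Cre mice 2 and 4 hold the extremes of the *Ckb* share, 0.452% and 2.37%, and of the ratio, 180.3 and 37.0.

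The variation lay mainly between mice of the same genotype. With genotype means subtracted from log2 CPM, the fiber genes *Ckm*, *Ckmt2*, *Ak1* and *Ampd1* stood at 0.79, 1.37, 0.63 and 0.80 in Pax7Cre mouse 2 and at -0.56, -0.96, -0.42 and -0.50 in Pax7Cre mouse 4. *Ckb* and *Gatm* went the other way, at -0.36 and -0.16 in Pax7Cre mouse 2 and at 0.58 and 0.26 in Pax7Cre mouse 4. *Slc6a8* deviated less in these mice, by 0.16 and 0.031. The standard deviation within genotypes was 0.68 for *Ckmt2*, larger than for 97.5% of genes, and 0.14 for *Gatm*, larger than for 27.9%, beside a median of 0.19 for all genes. For *Ckm* it was 0.51 in Pax7Cre and 0.11 in miR-501KO, and for *Slc6a8* 0.154 and 0.145. The share of all genes with a larger spread in Pax7Cre was not computed, and the difference was not tested.

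Over the 10 mice, after subtraction of the genotype means, *Ckm* correlated with *Ak1* and *Ckmt2* at r = 0.95 each and with *Ampd1* at 0.90. Without Pax7Cre mice 2 and 4 these were 0.89, 0.74 and 0.40, so that *Ckm* and *Ak1* kept close to each other in the remaining mice and *Ampd1* less so. *Ckb* and *Gatm* correlated at r = 0.90, or 0.69 without both mice. By its r with *Gatm*, *Ckb* ranked 6 of 14409 genes, or 37 without Pax7Cre mouse 2. In the other direction *Gatm* ranked 94 by its r with *Ckb*, or 156 without that mouse.

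The opposition between *Ckm* and *Ckb*, at r = -0.74, rested on Pax7Cre mice 2 and 4. It was -0.63 without Pax7Cre mouse 2, -0.55 without Pax7Cre mouse 4 and 0.12 without both, and *Ckm* and *Gatm* went from -0.65 to 0.025. *Slc6a8* went with *Ak1* at r = 0.69 and with *Ckm* at 0.53, and without both mice at 0.89 and 0.82. Both genes of a pair were read from the same libraries.

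**Figure D5:**
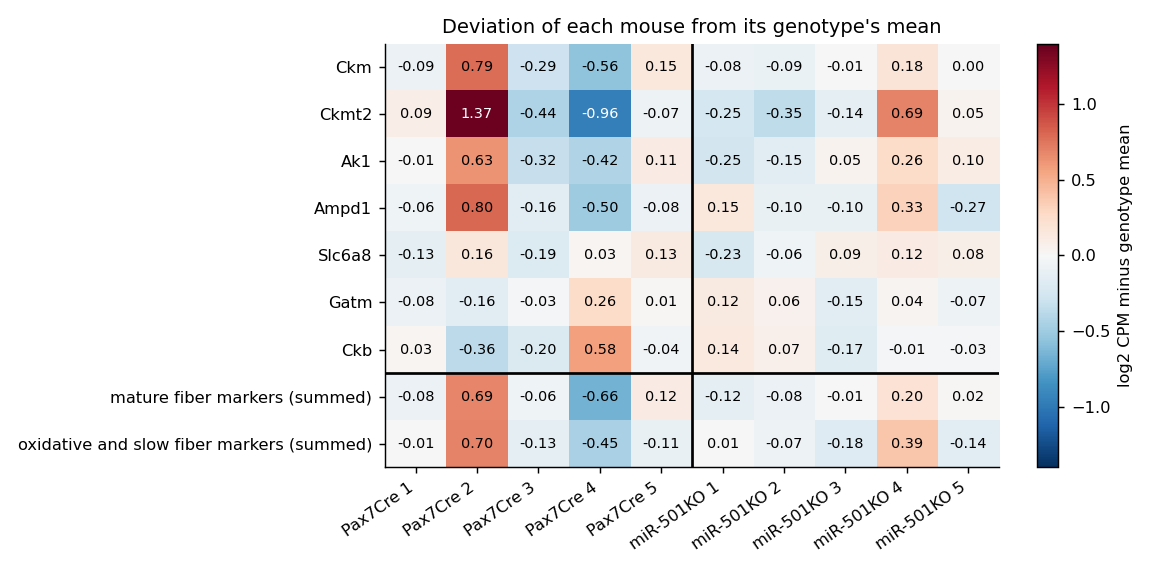
Log2 CPM minus the genotype's mean (colour and number in each cell) for the 7 genes and for the summed CPM of 2 fiber marker lists, by mouse. *Ckm*, *Ckmt2*, *Ak1*, *Ampd1* and both marker sums are high in Pax7Cre mouse 2 and low in Pax7Cre mouse 4, while *Ckb* and *Gatm* show the opposite signs in these mice.

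Summed fiber markers moved with this pattern. The 15 mature fiber markers summed to 40029 (mouse 4) to 101479 (mouse 2) CPM in Pax7Cre and to 63403 to 79522 in miR-501KO. Their log2 sum correlated over the 10 mice with *Ckm* at r = 0.97, *Ckmt2* 0.93, *Ak1* 0.91 and *Ampd1* 0.87, and without Pax7Cre mice 2 and 4 at 0.85, 0.78, 0.85 and 0.39. With *Gatm* it was at -0.74 and with *Ckb* at -0.87, which became -0.057 and -0.26 without both mice, while *Slc6a8* went from 0.43 to 0.84.

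The 13 oxidative and slow fiber markers summed to 2618 to 5801 CPM in Pax7Cre and 3311 to 4894 in miR-501KO, with r = 0.97 for *Ampd1* and 0.95 for *Ckmt2*, or 0.88 and 0.80 without both mice. Between genotypes 13 of 15 mature fiber markers and 8 of 13 oxidative markers had a higher fitted level in miR-501KO, 0 of them at an unadjusted p under 0.05. Without Pax7Cre mouse 2 these were 15 of 15 with 3 at that level and 9 of 13 with 4, all of them higher, where 1.84% of all genes passed as higher and 1.28% as lower. Without Pax7Cre mouse 4 they were 5 of 15 and 4 of 13, with 0 at that level (1.57% and 1.67% of all genes). Without both they were 14 of 15 with 2 and 7 of 13 with 1, again all higher (1.91% and 1.73% of all genes). The part of fiber content in the levels of the phosphagen genes was not tested.

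Markers of other cell types also moved with some of the genes, and the strongest r of each list with any phosphagen gene is given with its value without Pax7Cre mice 2 and 4. The 6 smooth muscle and pericyte markers (summed, 1098 to 1402 CPM in Pax7Cre, 1275 to 1531 in miR-501KO) were at r = 0.78 with *Ckb* (0.67), and the 10 macrophage markers (5785 to 8201 and 6095 to 7292 CPM) at -0.68 with *Slc6a8* (-0.62). The 6 endothelial markers (619 to 765 and 615 to 776 CPM) were at 0.75 with *Ak1* (0.67), and the 6 fibro-adipogenic markers (13881 to 18866 and 14776 to 17945 CPM) at -0.74 with *Ampd1* (-0.54). The 10 regenerating fiber and myoblast markers (5354 to 7747 and 5274 to 7700 CPM) were at -0.62 with *Ampd1* (-0.66).

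The 6 Schwann cell markers (31.1 to 57.0 and 35.5 to 51.3 CPM) were at r = 0.92 with *Ampd1* (0.81). The 5 adipocyte markers (13.8 to 47.8 and 3.44 to 36.8 CPM) were at 0.44 with *Slc6a8* (0.50). For some lists another gene had the strongest r without Pax7Cre mice 2 and 4. *Ckb* was then at 0.75 with macrophage, -0.68 with fibro-adipogenic and -0.74 with adipocyte markers, and *Slc6a8* at 0.70 with endothelial markers. All of these marker sums overlapped between genotypes. With all 10 mice 0 of these markers passed an unadjusted p of 0.05, without Pax7Cre mouse 2 *Mrc1* did as lower (1.28% of all genes), without Pax7Cre mouse 4 *Itgam* and *Acta2* did as higher (1.57%), and without both 0 did. Fitted levels were higher in miR-501KO for 8 of 10 regenerating fiber, 7 of 10 macrophage, 4 of 6 smooth muscle, 3 of 6 Schwann cell, 1 of 6 endothelial, 1 of 6 fibro-adipogenic and 0 of 5 adipocyte markers, the last with a median log2 fold change of -0.27.

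The direction of several of these lists turned on Pax7Cre mouse 2. Without it 2 of 10 regenerating fiber, 0 of 10 macrophage, 4 of 6 Schwann cell and 3 of 6 endothelial markers were higher, and without Pax7Cre mouse 4 these were 9, 7, 2 and 1. Smooth muscle markers were higher for 4 of 6 in both cases. Without both mice 7 of 10 regenerating fiber and 4 of 10 macrophage markers were higher, so no direction is given for either list.

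For each phosphagen gene, the 3 genes with the highest r over the 10 mice, genotype means subtracted, are named from all genes tested. For *Ckm* they were *Actn3*, a structural protein of fast fibers that is also on the mature fiber list, *Ghr*, the growth hormone receptor, and *Aldoa*, a glycolytic aldolase (r = 0.98 to 0.99). For *Ckmt2* they were *Sod2*, the mitochondrial superoxide dismutase, *Rpl3l*, a muscle ribosomal protein, and *Got1*, a cytosolic aspartate aminotransferase (r = 0.99 each). For *Ak1* they were *Atp5b*, a subunit of ATP synthase, *Hadh*, an enzyme of fatty acid oxidation, and *Gpd1*, the cytosolic glycerol-3-phosphate dehydrogenase (r = 0.99 each). For *Ampd1* they were *Paip2b*, *Fam69a* and *Apol6* (r = 0.98 to 0.99).

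*Ckb* was followed most closely by *Arpc1b*, a subunit of the actin-nucleating Arp2/3 complex, *Pappa2*, a protease of growth factor binding proteins with as few as 13 counts in a mouse, and *Tssc4* (r = 0.97 to 0.98). For *Gatm* the closest were *Baiap2*, *Fam207a* and *Bsn* (r = 0.91 to 0.94), and for *Slc6a8* they were *Best3*, *Myo18a* and *Pdzrn3* (r = 0.97 to 0.98). The names depend on the mice and the measure. Without Pax7Cre mouse 2, 6 of the 21 named genes stayed among the 3 of their phosphagen gene, 0 of 3 for *Ckm* and for *Gatm*, and with rank correlation 1 of 21 did, *Pappa2*.

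Of 37 other adenylate and phosphagen genes, 35 were tested, 15 had a higher and 20 a lower fitted level in miR-501KO, and 0 passed an unadjusted p of 0.05 (median log2 fold change -0.015, beside -0.0042 for all genes). *Ak7* and *Ak9* did not pass the filter on low counts. Of 8 arginine and glycine enzymes around creatine synthesis, 7 were tested, 4 higher and 3 lower, again with 0 at an unadjusted p under 0.05 (median 0.0082), and *Arg2* did not pass the filter. These counts of 0 are near the shares over all genes, 0.382% higher and 0.666% lower. Without Pax7Cre mouse 2 the larger list had 3 at that level (*Nt5c1a* and *Prkag3* higher, *Ada* lower), where 1.84% of all genes passed as higher and 1.28% as lower. Without Pax7Cre mouse 4 it had 2 (*Ak8* and *Ampd2*, both higher) and the smaller list 1 (*Shmt2*, higher), beside 1.57% and 1.67% of all genes. Leaving out both mice gave 2 (*Nt5c1a* and *Prkag3*, both higher) and 0, beside 1.91% and 1.73%. The smallest adjusted p of these fits in edgeR was 0.982. *Nt5c1a* rested on only 3 to 40 counts per mouse.

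The 4 genes of these lists with the smallest p-values were *Prkag2*, *Ak8*, *Prkag3* and *Ampd2*. *Prkag2*, a regulatory subunit of the AMP-activated kinase, was at 15.7 to 18.0 CPM in Pax7Cre and 13.6 to 17.4 in miR-501KO, with a log2 fold change of -0.15 (SE 0.087, edgeR adjusted p = 1.00, exact permutation p = 0.0794). *Prkag3*, the subunit of that kinase found in muscle, had a log2 fold change of 0.32 (SE 0.19, edgeR adjusted p = 1.00, exact permutation p = 0.175), with miR-501KO mice 1 and 2 highest at 126 and 135 CPM and Pax7Cre mouse 2 next at 118. Without Pax7Cre mouse 2 it was 0.49 (unadjusted p = 0.00944, adjusted p = 0.999 in edgeR), and without Pax7Cre mouse 4 it was 0.25 (unadjusted p = 0.230). *Ak8*, an adenylate kinase, rested on 5 to 29 counts per mouse and had a log2 fold change of 0.53 (SE 0.32, edgeR adjusted p = 1.00, exact permutation p = 0.0873), or 0.49 without Pax7Cre mouse 2 and 0.77 without Pax7Cre mouse 4 (unadjusted p = 0.172 and 0.0358).

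*Ampd2*, the AMP deaminase of non-muscle cells, ran opposite to *Ckm* between mice. It was at 30.7, 23.7, 32.3, 38.0 and 29.95 CPM in the Pax7Cre mice and at 35.2, 37.3, 34.7, 31.0 and 35.5 CPM in the miR-501KO mice. Pax7Cre mouse 2 had the least and Pax7Cre mouse 4 the most, and the correlation with *Ckm* over the 10 mice was -0.96, or -0.80 without both. The log2 fold change was 0.17 (SE 0.11, edgeR adjusted p = 1.00, exact permutation p = 0.151). It was 0.083 without Pax7Cre mouse 2 (unadjusted p = 0.352), 0.25 without Pax7Cre mouse 4 (unadjusted p = 0.0213, adjusted p = 0.996 in edgeR) and 0.17 without both.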

How the data were processed

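Whole TA muscle mRNA of 10 mice was sequenced as 100-base single-end reads from stranded libraries. STAR was the aligner the authors used and, per the labels' processing notes, featureCounts the counter, with GRCm38.p5 and R 3.5.1. The methods name the annotation as ENCODE release 91. The strand and multi-mapping settings are not given in the sources used here. The deposited values are raw counts per gene with no normalization, and all values were whole. Annotated antisense genes over *Ckm* (451 shared exon bases) and *Ckmt2* (84) are not among the genes listed, and reads from them cannot be told apart here. Of 25700 genes, 25587 matched GENCODE M21 by Ensembl identifier.

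Genotypes were compared with the quasi-likelihood test of edgeR 4.0.16 (R 4.3.3) on TMM-scaled counts, for the 14410 genes that filterByExpr kept (minimum count 10, minimum total count 15). P-values were adjusted over all of these genes after Benjamini and Hochberg. CPM use the TMM-scaled library sizes, and log2 CPM a prior count of 0.5. Levels per kb divide CPM by merged exon or coding length of M21. Totals of 18609222 to 24753258 counts put every gene tested among the 8 at 1074 counts or more per mouse, so the spread between mice and not counting limits them. Groups were taken from the sample titles, and equal mouse numbers were not taken as pairs, since deviations of same-numbered mice correlated at -0.283 to 0.319. The fit was tested on simulated counts.

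The 8 genes were given by name, and the pathway and marker lists and the rule for similar genes (the 3 with the highest Pearson r per gene) were chosen with earlier results of these data known. From the pathway lists the genes at an unadjusted p under 0.05 were to be named, or else the 4 with the smallest p, while *Nt5c1a*, *Ada*, *Shmt2*, *Mrc1*, *Itgam* and *Acta2* fall outside it and were chosen with their values in view. Coding length, and correlations and lists without Pax7Cre mice 2 and 4, were added after the data had been seen, the former because merged exons of *Ckb* include retained introns. Alternatives were DESeq2 1.42.0 (size factors and Wald test), TMM factors without fiber genes, other filters, a replicate block, edgeR's likelihood ratio and robust tests, and leaving out mice.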

Additional observations from a re-analysis of the deposited data

Results flagged for a closer look

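In 2 of 26 groups of 5 mice searched, over 13 quantities, 1 mouse lay further from the others than Dixon's 95% critical ratio of 0.71, where chance alone gives about 1.3. *Ckmt2* was at 1199 CPM in Pax7Cre mouse 2 and at 239 to 494 CPM in the other Pax7Cre mice, a gap of 0.734 of the range. *Ampd1* was at 578 CPM in the same mouse and at 235 to 317 CPM in the others, a gap of 0.760 of the range. This mouse also had the highest summed mature fiber markers, 101479 CPM, and the part of fiber content in both values was not tested.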

How the results depend on the processing

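In edgeR and DESeq2, 0 genes passed an adjusted p of 0.05 under every alternative run, and the smallest adjusted p of a phosphagen gene was 0.982. DESeq2's Wald test had 52 genes higher and 98 lower at an unadjusted p under 0.05. The genes at an unadjusted p of less than 0.05 in the report, 55 (0.382%) higher and 96 (0.666%) lower, became 153 (0.771%) and 159 with no filter on low counts. They became 36 higher with at least 10 counts in every mouse, 87 (0.604%) higher with the replicate block, and 1.91% and 1.73% of genes without Pax7Cre mice 2 and 4. Leaving out 1 mouse gave 0.269% to 1.84% higher (1.84% without Pax7Cre mouse 2, 1.57% without Pax7Cre mouse 4) and 0.408% to 1.67% lower (0.408% without miR-501KO mouse 1, 1.28% without Pax7Cre mouse 2, 1.67% without Pax7Cre mouse 4). Under the replicate block the log2 fold change of *Ckmt2* turned to 0.15, and no call changed. Without Pax7Cre mice 2 and 4 those of *Ckmt2*, *Ak1* and *Slc6a8* turned to 0.32, 0.048 and 0.016, while *Ckm*, *Ckb*, *Ampd1* and *Gatm* were at 0.27, 0.25, 0.28 and 0.066, with *Ckb* and *Ampd1* at unadjusted p = 0.0139 and 0.0417 in edgeR. Leaving out 1 mouse gave -0.25 to 0.48 for *Ckmt2*, -0.16 to 0.13 for *Ak1*, -0.0034 to 0.37 for *Ampd1*, -0.015 to 0.097 for *Gatm* and -0.089 to 0.0077 for *Slc6a8*, so their signs are not settled. *Ckm* (0.0030 to 0.37) and *Ckb* (0.054 to 0.32) kept theirs under all alternatives run. The cause of these changes was not tested. Chosen after seeing the data, the same omissions gave 2 (both mice) and 2 to 3 (1 mouse) other adenylate and phosphagen genes at an unadjusted p under 0.05, where the report has 0, and 0 to 1 arginine and glycine enzymes (1 mouse).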
